A study of Mus musculus with 14 samples.

Results

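Messenger RNA of 9 secreted leukocyte attractants and growth factors was examined in mouse muscle satellite cells: the chemokine genes Ccl2, Ccl7, Cxcl1, Cxcl2, Cxcl3, Cxcl5, Cxcl10 and Cx3cl1, and Csf1, which encodes macrophage colony-stimulating factor. The 9 were taken by symbol, with earlier results of these data known, and each matched 1 of the 49671 genes in both count tables. Satellite cells are the stem cells of skeletal muscle. Each of the 14 libraries came from 1000 cells sorted fresh from uninjured C57BL/6J muscle (triceps, pectoral and hind-limbs), positive for CXCR4 and B1-Integrin and negative for Ter119, Sca1, CD11b, CD31 and CD45. In the first dataset, FosGFP mice aged 4 months gave 4 FosGFP+ and 4 FosGFP- libraries, where GFP reports the immediate early gene Fos. In the second, mice aged 6 months gave 3 libraries labelled FoscKO and 3 labelled Control, and the design text gives a FosGFP+ gate for both of these groups. The design text states 4 mice for the first dataset and 3 for the second. The labels tie no library to a mouse and do not name the driver of the deletion or how the reporter was built, so p-values measure the spread between libraries, which may be partly technical. They name no batch either.

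Chemokines are small secreted proteins that steer leukocytes through G-protein-coupled receptors, and they are grouped by the spacing of their first cysteines into CC, CXC and CX3C families. Ccl2 and Ccl7 attract monocytes through CCR2, Cxcl1, Cxcl2, Cxcl3 and Cxcl5 attract neutrophils through CXCR2, Cxcl10 attracts T cells through CXCR3, and the membrane-anchored Cx3cl1 binds CX3CR1 on monocytes. Csf1 supports the survival and growth of macrophages through CSF1R. In injured muscle, neutrophils and then macrophages enter the tissue before satellite cells rebuild the fibres, and NF-kB is a common activator of these genes.

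Fos mRNA did not follow the labels. It was at 3098 to 5398 CPM (counts scaled to a library of 1000000) in the libraries labelled FosGFP+ and at 7908 to 12883 in those labelled FosGFP- (log2 fold change -1.25, adjusted p = 9.33e-04, edgeR). In the libraries labelled FoscKO it was at 8442, 2876 and 3805 CPM, against 5044, 5025 and 4733 in Control (log2 fold change 0.03, adjusted p = 0.996), and the sign of that difference turned under 7 of the settings tried. The directions below therefore belong to libraries by their labels, not to a measured level of Fos mRNA. Counts in genes ranged from 2652230 to 5983711 per library in the first dataset and from 4797954 to 10241655 in the second. The share of reads in genes was 17.0 to 23.2% in FosGFP+ and 10.3 to 14.1% in FosGFP-, and FoscKO replicate 1, at 30.2%, stood apart from the other FoscKO libraries.

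Most of the chemokine genes lie in clusters (GRCm38). Ccl2 (82035571 to 82037453) and Ccl7 (82045712 to 82047525) are 8258 bases apart on chromosome 11, both on the plus strand. On chromosome 5, also on the plus strand, follow Cxcl5 (90759360 to 90761624), Cxcl3 (90786103 to 90789600), Cxcl1 (90891241 to 90893115) and Cxcl2 (90903871 to 90905938), and Cxcl10 lies farther along on the minus strand (92346638 to 92348889). Cx3cl1 is on chromosome 8 (94772009 to 94782427, plus strand) and Csf1 on chromosome 3 (107741048 to 107760469, minus strand). Cxcl2 and Cxcl3 share 89.8% of their coding bases. Of the 50-base stretches of Cxcl2 exons, 5.84% recur elsewhere, all in Cxcl3, so reads there cannot be assigned to one of them with certainty. Of the Cxcl3 stretches, 4.29% recur in other genes, in Cxcl2 and in many besides, with the same limit. Cxcl10 shares 133 exonic bases with Art3 on the opposite strand, and 3.59% of its 50-base stretches recur there. The library kit does not mark strand, so reads of the shared bases cannot be told apart.

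RefSeq promoter sequences (GRCm38.p6, from 250 bases before to 50 after the start) matched 6 of the 9 genes: Cxcl1, Cxcl2, Cxcl3, Cxcl10, Cx3cl1 and Csf1. They were searched on both strands for the NF-kB consensus, for the AP-1 site TGANTCA, to which Fos-Jun dimers bind, and for the interferon-stimulated element, written as GAAA, 2 bases and GAAA. The stretches with matches are shown to set the letters of these genes beside the AP-1 motif of the study's factor. Capitals mark bases inside any match, and overlapping matches run together.
Cxcl1, chr5:90891125-90891224, plus strand: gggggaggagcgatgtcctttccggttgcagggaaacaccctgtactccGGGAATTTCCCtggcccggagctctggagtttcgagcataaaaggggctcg
Cxcl2, chr5:90903779-90903878, plus strand: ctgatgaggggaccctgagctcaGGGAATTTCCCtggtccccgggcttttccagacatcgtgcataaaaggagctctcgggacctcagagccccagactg
Cxcl3, chr5:90785981-90786080, plus strand: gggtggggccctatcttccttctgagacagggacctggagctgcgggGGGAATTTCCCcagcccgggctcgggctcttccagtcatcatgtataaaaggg
Cxcl10, chr5:92348940-92349109, minus strand: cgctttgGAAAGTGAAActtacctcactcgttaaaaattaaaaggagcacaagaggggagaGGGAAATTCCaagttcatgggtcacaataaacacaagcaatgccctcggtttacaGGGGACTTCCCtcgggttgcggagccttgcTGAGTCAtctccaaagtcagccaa
Csf1, chr3:107760540-107760639, minus strand: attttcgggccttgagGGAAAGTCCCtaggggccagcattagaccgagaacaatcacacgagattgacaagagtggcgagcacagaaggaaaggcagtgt

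Cxcl1, Cxcl2 and Cxcl3 held the same match, GGGAATTTCC, beginning at -71, -97 and -73 with the start site counted as 0. Their matches overlap a second one on the other strand, which makes the run of 11 capitals. Csf1 held 1 NF-kB match on the minus strand, from -154, and Cxcl10 held matches from -159 and around -104. The NF-kB consensus was present in 8.46% of all 32851 RefSeq promoters of the same length. Of the 6 windows, only that of Cxcl10 held TGANTCA, from -74, which 7.81% of promoters hold. It also held the interferon-stimulated element, from -213, which 3.44% hold, and the Cx3cl1 window held none of the 3 motifs. A match describes letters in the window, not binding.

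**Figure D1:**
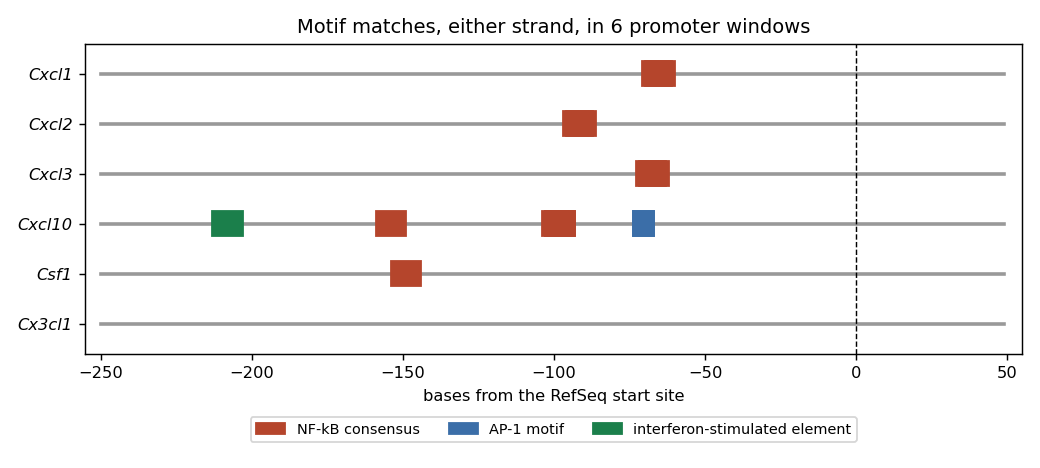
Position of motif matches in the 6 promoter windows, with the distance from the RefSeq start site in bases on the x axis and 1 gene per row. Red blocks are NF-kB matches, the blue block the AP-1 motif and the green block the interferon-stimulated element; Cxcl10 is the only window with all 3 and Cx3cl1 has none.

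Cxcl1 was the most abundant of the 9 in every group. Its mean CPM placed it 25th of the 20698 genes tested in FosGFP+, 41st in FosGFP-, and 27th and 28th of 21885 in FoscKO and Control. Per kilobase of the longest coding transcript, FosGFP+ levels were 2837 ± 381 CPM (SD, n = 4) for Cxcl1, 521 ± 120 for Ccl2, 235 ± 48.3 for Ccl7 and 108 ± 18.6 for Csf1. From Csf1 down, the libraries of neighbouring genes overlapped: Cxcl3 was at 81.3, Cxcl2 at 75.7, Cx3cl1 at 60.9, Cxcl10 at 49.98 and Cxcl5 at 29.1. In FosGFP- the order per kilobase began with Cxcl1 at 1419 ± 159, Ccl2 at 279 ± 106 and Ccl7 at 168 ± 51.0, and continued with Cxcl10 at 93.4, Cx3cl1 at 36.8, Cxcl2 at 26.1, Csf1 at 24.8, Cxcl3 at 24.4 and Cxcl5 at 4.66. Csf1 thus had rank 4 in FosGFP+ and rank 7 in FosGFP-, and Cxcl10 ranks 8 and 4. In FosGFP- the libraries of neighbouring genes overlapped from Cxcl10 down to Cxcl3, and between Ccl2 and Ccl7, so nearby ranks are not distinct. Per kilobase of all exons Cxcl10 had rank 7 in FosGFP+.

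FoscKO and Control had the same 3 genes at the top and Cxcl5 at the bottom. Per kilobase, the FoscKO means were 2844 CPM for Cxcl1, 1322 for Ccl2, 446 for Ccl7, 141 for Cxcl10, 77.2 for Cx3cl1, 75.3 for Cxcl2, 39.5 for Csf1, 11.5 for Cxcl3 and 5.92 for Cxcl5. The Control means were 2142, 299, 288, 46.3, 29.8, 52.0, 56.0, 35.2 and 6.13 CPM for the same genes in that order. Ccl2 and Ccl7 overlapped in Control and were separate in FoscKO. Per kilobase of all exons in place of the longest coding transcript, Ccl7 stood above Ccl2 in Control and Cxcl3 fell to the bottom in FosGFP+ and FoscKO. Levels in the 2 datasets come from separate normalizations and are set side by side only.

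**Figure D2:**
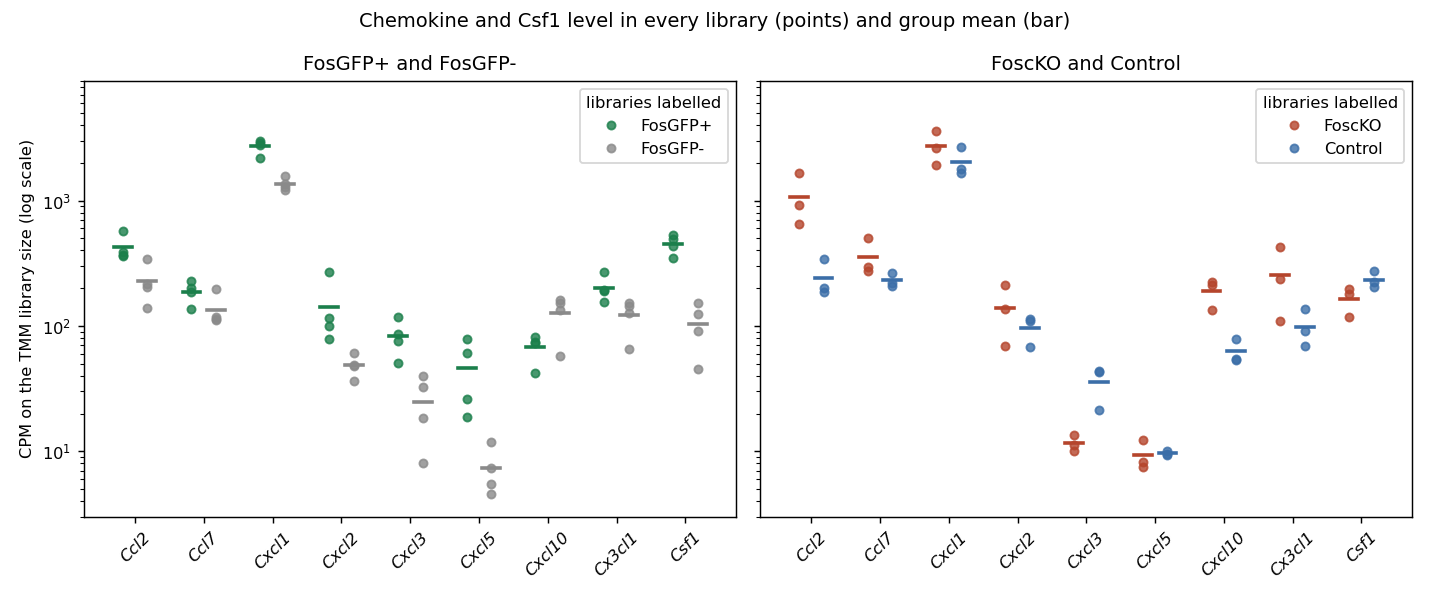
CPM on the TMM library size (log axis) of each gene in each library, with FosGFP+ and FosGFP- on the left and FoscKO and Control on the right. Points are libraries and bars group means; the FosGFP+ libraries lie above all FosGFP- libraries for every gene except Ccl7 and Cxcl10, and the FoscKO libraries lie above Control for Ccl2, Ccl7 and Cxcl10 and below it for Cxcl3 and Csf1.

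Between FosGFP+ and FosGFP- cells, 6 of the 9 genes rose at an adjusted p under 0.05: Ccl2, Cxcl1, Cxcl2, Cxcl3, Cxcl5 and Csf1 (edgeR quasi-likelihood test, Benjamini-Hochberg over 20698 genes). Of all genes tested, 10.3% were called higher and 1.85% lower. None of the 9 was called lower by edgeR, DESeq2 or limma-voom, with 1 (Cxcl10) lower at an unadjusted p under 0.05, and all 9 had passed the filter on low counts. For 7 of the 9 every FosGFP+ library lay above every FosGFP- library, which held for 12.9% of genes. Of the 9, 0 lay wholly below, which held for 6.45%. The 9 were chosen with earlier results of these data known, so these shares describe them and are not a test. The median log2 fold change of the 9 was 1.00, against -0.18 over all genes. Most of the 9 were abundant, while all genes include weak ones, so these shares and medians are not like for like. With TMM factors from genes of at least 50 CPM the median of the 9 was 0.40. The even background of reads described below would make up 6.53 to 10.8% of gene counts in FosGFP+ and 13.2 to 19.8% in FosGFP-. Its part was not tested. These are bulk samples, in which fewer cells of a type and less RNA per cell cannot be told apart. Where values are listed by library below, replicates 1 to 4 (or 1 to 3) are given in order.

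The monocyte attractant Ccl2 was at 364, 392, 568 and 369 CPM in the FosGFP+ libraries and at 206, 139, 344 and 217 CPM in the FosGFP- libraries. The groups did not overlap, but FosGFP- replicate 3 came close to the lowest FosGFP+ library. The log2 fold change was 0.90 ± 0.25 (SE, adjusted p = 0.0239). Without FosGFP+ replicate 3, FosGFP- replicate 1 or FosGFP- replicate 2 the call was lost, with an adjusted p of 0.0573, 0.0678 and 0.0652. Its neighbour Ccl7, another CCR2 ligand, was at 188, 135, 228 and 201 CPM in FosGFP+ and at 113, 111, 196 and 118 in FosGFP-. FosGFP- replicate 3 lay inside the FosGFP+ range, and the log2 fold change of 0.48 ± 0.22 did not pass (adjusted p = 0.180). Without that library it was 0.73 and passed (adjusted p = 0.0344).

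All 4 neutrophil attractants rose in the libraries labelled FosGFP+, though Cxcl1 and Cxcl3 each lost the call under 1 setting given below. Cxcl1 was at 2177, 2763, 2989 and 2884 CPM in FosGFP+ and at 1361, 1214, 1273 and 1560.3 CPM in FosGFP-. The ranges were well apart, with a log2 fold change of 1.00 ± 0.17 (SE, adjusted p = 0.00105). Cxcl2 was at 101, 78.7, 268 and 116 CPM against 60.4, 49.1, 36.5 and 47.8, a log2 fold change of 1.53 ± 0.32 (adjusted p = 0.00454). FosGFP+ replicate 3 was the highest Cxcl2 library, and without it the log2 fold change was 1.07 and still passed.

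Cxcl3 was at 50.3, 85.8, 76.2 and 118 CPM in FosGFP+ and at 18.5, 8.04, 32.5 and 40.0 CPM in FosGFP-. The log2 fold change was 1.74 ± 0.38 (SE, adjusted p = 0.00575). Cxcl5 was at 26.0, 18.8, 60.3 and 78.4 CPM against 7.35, 5.46, 4.6 and 11.9. With 2.64 ± 0.44 (adjusted p = 0.00101) it had the largest log2 fold change of the 9 in this comparison, from the lowest level. Both genes were sparse in FosGFP-, at 28 to 134 counts for Cxcl3 and 16 to 40 for Cxcl5. An even background of reads over exons, estimated from 1743 chemosensory receptor genes, would account for 11.0 to 52.7% of the Cxcl3 counts and 19.7 to 44.1% of the Cxcl5 counts in FosGFP-. In FosGFP+ it would be at most 6.02% and 6.53%. With that background removed, Cxcl5 still passed at 2.83, and Cxcl3 was at 1.67 with an adjusted p of 0.0697.

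Csf1 had the smallest p-value of the 9. It was at 350.3, 527, 494 and 434 CPM in FosGFP+ and at 90.9, 125, 153 and 45.7 CPM in FosGFP-. The 2 ranges lay far apart, and the log2 fold change was 2.13 ± 0.29 (SE, adjusted p = 2.80e-04). This gene ranked 127th of the 20698 genes by p. Cx3cl1 was at 271, 193, 156 and 188 CPM against 151, 145, 127 and 65.1. Its groups touched without overlapping, and the log2 fold change of 0.73 ± 0.25 missed the threshold (adjusted p = 0.0704). Cx3cl1 passed without FosGFP+ replicate 3 (adjusted p = 0.0413). The authors' deposited table lists Cx3cl1 as higher in FosGFP+ (log2 fold change 0.76, adjusted p = 0.0281) together with the 6 genes called here.

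Cxcl10 was the only one of the 9 with a negative fold change here. It was at 73.9, 82.1, 41.8 and 72.7 CPM in FosGFP+ and at 57.7, 152, 133 and 162 CPM in FosGFP-. FosGFP- replicate 1 lay among the FosGFP+ libraries and the other 3 lay above them. The log2 fold change was -0.90 ± 0.29 (SE, adjusted p = 0.0530), and without FosGFP- replicate 1 it was -1.13 (adjusted p = 0.00768). Cxcl10 was also called lower with counts scaled to the total, with TMM factors from genes of at least 50 CPM, with the background removed and with a filter at a mean of 5 CPM.

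Scaling moved this comparison as a whole. Against the main fit, the median log2 fold change of all genes shifted by -0.40 with total counts, by -0.58 with TMM factors from genes of at least 50 CPM and by -0.19 with the even background removed. The calls over all genes, 2125 higher and 383 lower, became 1005 and 2243 with total counts and 722 and 5252 with the second setting. The median of the 9 was then 0.59, 0.40 and 0.75, with 5, 4 and 4 of them called higher. Ccl2 lost its call under all 3 settings (adjusted p = 0.132, 0.253 and 0.138), and Cxcl1 lost it under the second (adjusted p = 0.0756), where Ccl7 turned to -0.08. Cxcl2, Cxcl5 and Csf1 were called higher in each of these settings. The share of reads in genes moved with the groups, as given above, and its part in these results was not tested. Where calls of gene lists under these settings are given below, the calls over all 20698 genes under the same setting are their background. The shares of the main fit are not.

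**Figure D3:**
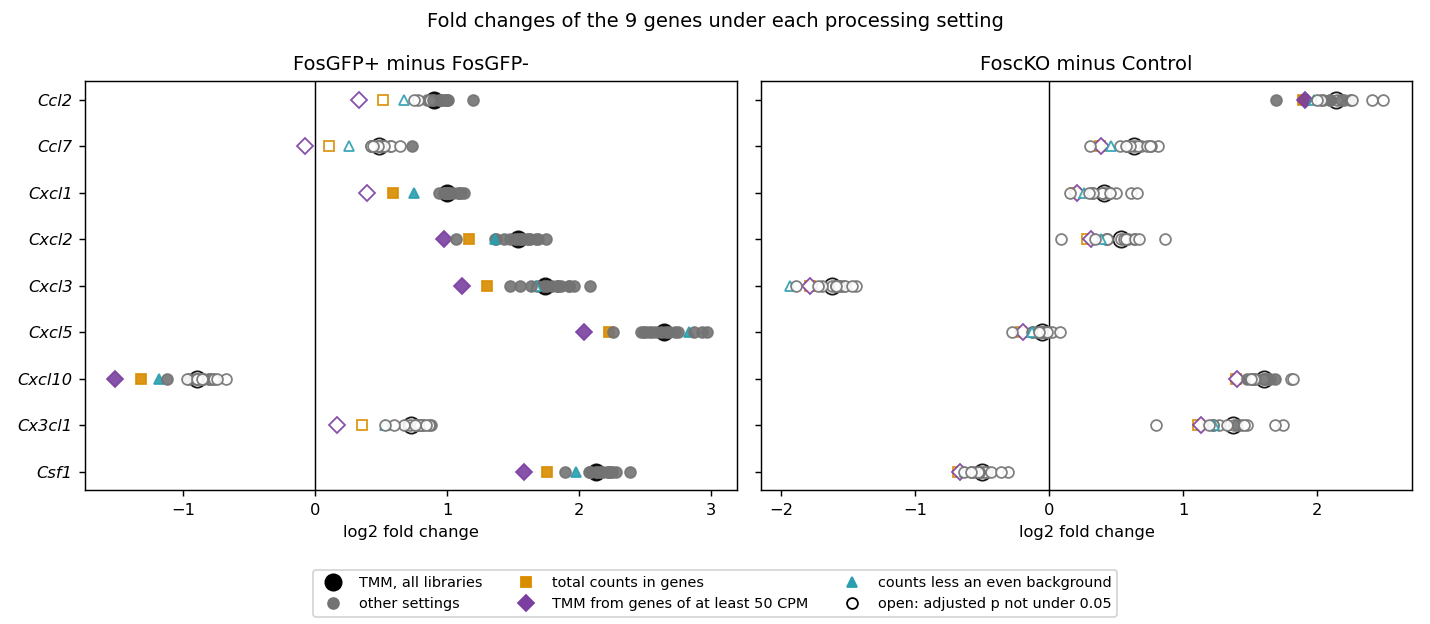
Log2 fold change of each gene (rows) under every processing setting, for FosGFP+ minus FosGFP- on the left and FoscKO minus Control on the right. Large black circles are the main fit and coloured symbols the 3 settings that shift all genes. Grey circles are the others including each library left out, and open symbols did not pass an adjusted p of 0.05. Csf1, Cxcl2 and Cxcl5 are filled throughout on the left. On the right, Ccl2, Cxcl10 and Cxcl3 are among those that change between filled and open, and with no filter 3 genes passed as higher.

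Between FoscKO and Control no gene was called, among the 9 or elsewhere: 0% of the 21885 genes tested passed in either direction by edgeR, 1208 had an unadjusted p under 0.05, DESeq2 called 69 and limma-voom 6. The 9 nevertheless held some of the smallest p-values, with Cxcl10 at rank 9, Ccl2 at rank 10 and Cxcl3 at rank 41 of the 21885 genes. Of the 9 fold changes 6 were above 0, with a median of 0.53 against -0.04 over all genes. The FoscKO libraries lay wholly above Control for Ccl2, Ccl7 and Cxcl10, which held for 5.75% of genes. They lay wholly below it for Cxcl3 and Csf1, which held for 6.47%. Here too the shares only describe genes chosen with earlier results known.

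Ccl2 was at 1648, 928 and 649.7 CPM in FoscKO and at 344, 200.4 and 186 CPM in Control. The log2 fold change was 2.14 ± 0.38 (SE) with an adjusted p of 0.0918, the largest positive difference of the 9 in this comparison. FoscKO replicate 1 was the highest library; without it the log2 fold change was 1.70 and passed (adjusted p = 0.0111). Ccl2 also passed with DESeq2 (adjusted p = 1.03e-04) and limma-voom (adjusted p = 0.0413). The authors' deposited table lists Ccl2 as higher in FoscKO by 1.83 (adjusted p = 1.01e-04). Ccl7 was at 503, 274 and 295 CPM against 264, 222 and 207, and its log2 fold change was 0.63 ± 0.29 (adjusted p = 0.890). The Ccl7 groups were separate by less than the spread within FoscKO.

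Cxcl10 was at 223, 214 and 135 CPM in FoscKO and at 54.7, 53.7 and 79.3 CPM in Control. The groups were apart, with a log2 fold change of 1.61 ± 0.28 (SE, adjusted p = 0.0918). Without FoscKO replicate 1 it was 1.48 and passed (adjusted p = 0.0224), and it passed with DESeq2 (adjusted p = 9.17e-04) but not with limma-voom (adjusted p = 0.0615). The authors' deposited table lists Cxcl10 as higher in FoscKO by 1.46 (adjusted p = 8.50e-04). Set side by side, its means were 67.6 ± 17.7 CPM in FosGFP+ and 126 ± 47.4 in FosGFP- (SD, n = 4), and 191 ± 48.2 in FoscKO and 62.6 ± 14.5 in Control (SD, n = 3).

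Of the neutrophil attractants, Cxcl3 was at 10.1, 13.6 and 11.2 CPM in FoscKO and at 43.6, 21.2 and 42.5 CPM in Control. All FoscKO libraries were lower, with a log2 fold change of -1.62 ± 0.36 (SE, adjusted p = 0.239). DESeq2 called Cxcl3 lower (adjusted p = 0.0251), and the authors' deposited table lists it with a log2 fold change of -1.29 (adjusted p = 0.0208). The FoscKO counts of Cxcl3 were 73 to 93 per library, of which the even background would account for 15.6 to 22.1%, against 5.96 to 11.9% in Control. Its near copy Cxcl2 was at 213, 137 and 69.3 CPM against 109, 113 and 67.4, with groups that overlapped (log2 fold change 0.53, adjusted p = 0.914). Cxcl1 was at 3578, 2618 and 1935 CPM against 2657, 1797 and 1670.4, and also overlapped (0.41, adjusted p = 0.914). Cxcl5 was low in both groups, at 8.24, 12.3 and 7.45 CPM against 9.55, 10.1 and 9.29, with a log2 fold change of -0.05 (adjusted p = 0.991).

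Cx3cl1 was at 423, 235 and 109 CPM in FoscKO and at 135, 91.0 and 69.7 CPM in Control. FoscKO replicate 3 lay within the Control range, and the log2 fold change of 1.37 ± 0.41 did not pass (SE, adjusted p = 0.609). Csf1 was at 179, 199 and 118 CPM in FoscKO and at 274, 223 and 204 CPM in Control. All 3 FoscKO libraries were lower by a small margin, and the log2 fold change of -0.50 ± 0.27 did not pass (SE, adjusted p = 0.914). Total counts, TMM factors from genes of at least 50 CPM and the background removal shifted all genes by -0.18, -0.18 and -0.11 here, and the median of the 9 was then 0.28, 0.31 and 0.38.

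**Figure D4:**
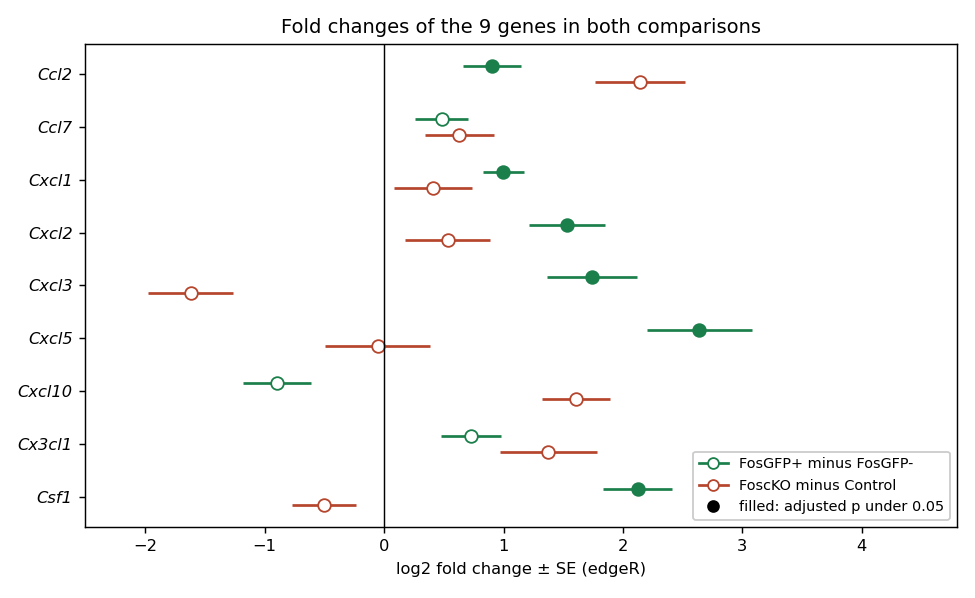
Log2 fold change ± SE of each gene from edgeR in FosGFP+ minus FosGFP- (green, 4 and 4 libraries) and FoscKO minus Control (red, 3 and 3 libraries), with filled points at an adjusted p under 0.05. Of the green points 6 are filled, and no red point is. Cxcl3, Csf1 and Cxcl5 are positive in green and negative in red, Cxcl5 only by -0.05 in red, and Cxcl10 is the reverse.

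Ratios between the genes within a library do not depend on scaling between libraries, and were added after the data had been seen. Each gene was expressed as a percent of the Cxcl1 counts, and Ccl7 as a percent of the Ccl2 counts, giving 9 ratios per dataset. The ratios share the counts of Cxcl1 or of Ccl2, so they are not separate observations. How often ratios of other genes to Cxcl1 were without overlap was not computed. Csf1 was 15.0 to 19.1% of Cxcl1 in FosGFP+ and 2.93 to 12.0% in FosGFP-. Cxcl10 was 1.40 to 3.39% in FosGFP+ and 4.24 to 12.6% in FosGFP-. Ccl7 was 34.5 to 54.4% of Ccl2 in FosGFP+ and 54.5 to 80.0% in FosGFP-. In these 3 ratios the groups did not overlap (exact two-sided permutation p = 0.0286, the smallest that 4 against 4 allows), and none passed after adjustment over the 9 (adjusted p = 0.0857). The other 6 overlapped, among them Ccl2, at 15.7 ± 2.75% of Cxcl1 in FosGFP+ and 16.9 ± 6.96% in FosGFP- (SD, n = 4).

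In the second dataset 6 of the 9 ratios did not overlap between the groups. They share counts as described above, and no share over other genes stands beside them. With 3 libraries against 3 an exact two-sided permutation p cannot lie below 0.1 (adjusted p = 0.15). Ccl2 was 33.6 to 46.1% of Cxcl1 in FoscKO and 11.1 to 12.9% in Control, the most widely separated of these ratios in units of its standard error. Ccl7 was 29.5 to 45.4% of Ccl2 in FoscKO and 76.6 to 112% in Control, so the neighbours were at near equal counts in Control and not in FoscKO. Relative to Cxcl1, Cxcl10 (6.22 to 8.17% against 2.06 to 4.75%) and Cx3cl1 (5.65 to 11.8% against 4.17 to 5.10%) were higher in FoscKO, and Cxcl3 (0.283 to 0.578% against 1.18 to 2.55%) and Csf1 (4.99 to 7.60% against 10.3 to 12.4%) were lower.

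**Figure D5:**
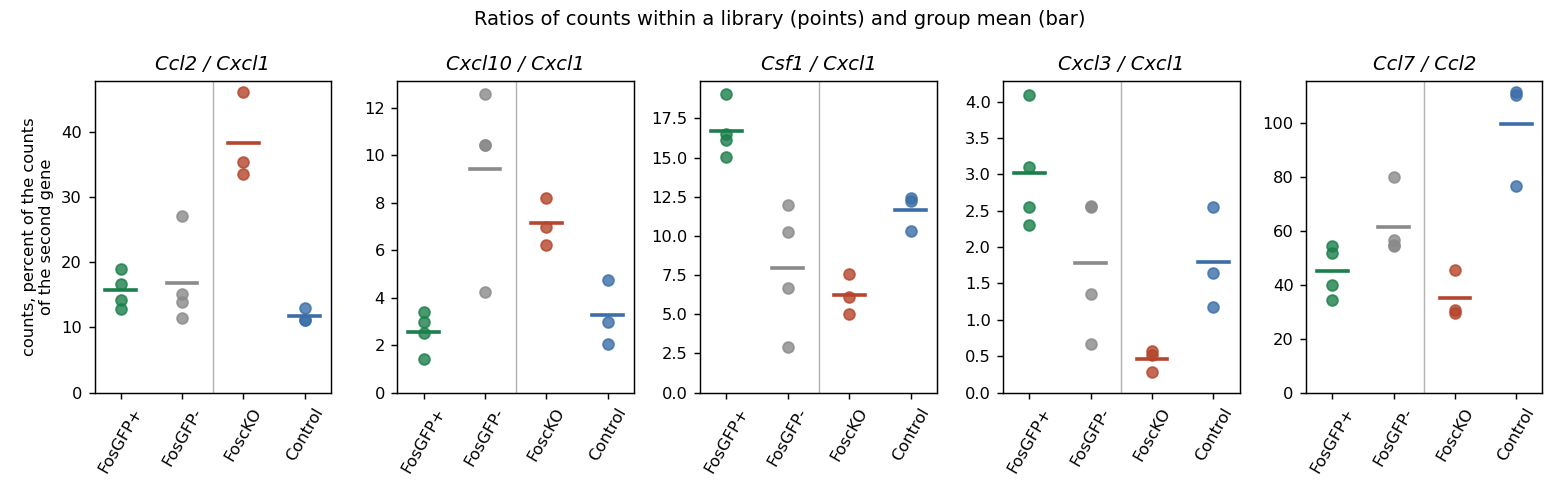
Counts of 1 gene as a percent of the counts of a second gene in the same library, for 5 ratios with separate axes from 0; points are libraries, bars group means and the vertical line divides the datasets. FoscKO libraries are above Control for Ccl2 to Cxcl1 (33.6 to 46.1% against 11.1 to 12.9%), and FosGFP+ libraries are above FosGFP- for Csf1 to Cxcl1 (15.0 to 19.1% against 2.93 to 12.0%).

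The receptors of these ligands were at low levels. Of 11 receptor genes, 9 were tested in the FosGFP comparison and 7 in the FoscKO comparison, with 0 called in each by edgeR, DESeq2 or limma-voom. At an unadjusted p under 0.05 there was 1 lower gene in each comparison. Csf1r was at 6.27 to 11.8 CPM in FosGFP+ and 10.1 to 11.8 in FosGFP-, and Ccr2 at 3.55 to 26.7 and 14.5 to 24.1. Cxcr2, the receptor of the neutrophil attractants, was at 0 to 3.81 and 0 to 4.88 CPM.

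Of 30 other chemokine ligands 15 were tested in the FosGFP comparison and 0 were called by edgeR, DESeq2 or limma-voom (1 higher and 1 lower at an unadjusted p under 0.05), with a median log2 fold change of -0.24. Cxcl12, the ligand of CXCR4, was at 40.1 ± 11.2 CPM in FosGFP+ and 61.2 ± 7.72 in FosGFP- (SD, n = 4; log2 fold change -0.61, adjusted p = 0.0940). It was called lower with total counts (adjusted p = 0.00798), and TMM factors from genes of at least 50 CPM called Cxcl9, Cxcl12 and Cxcl14 lower. Of 9 other chemokine receptors tested, 1 rose, beside 10.3% of all genes. It was Ackr3, an atypical receptor that takes up CXCL12, at 1276 ± 124 against 627 ± 172 CPM (log2 fold change 1.03, adjusted p = 0.00242). The median of the 9 was -0.14, and 4 were above 0. At an unadjusted p under 0.05, 2 were lower, Ccr8 by -1.72 and Ccr9 by -0.86 (adjusted p = 0.0920 and 0.109). These 2 were called lower with total counts. TMM factors from genes of at least 50 CPM called Ccr4, Ccr8 and Ccr9 lower. Each of these scalings still called 1 higher. None of 7 other myeloid growth factors tested was called by edgeR, while 3 had an unadjusted p under 0.05, DESeq2 called 3 and limma-voom 1. Csf2, which encodes granulocyte-macrophage colony-stimulating factor, was at 15.2 ± 6.39 against 5.25 ± 3.08 CPM (adjusted p = 0.0521), and Lif was at 44.4 ± 6.01 against 22.0 ± 14.9 CPM (adjusted p = 0.101). With the FoscKO label, Lif stood beside Ccl2 and Cxcl10 in the order of p-values, at 97.6 ± 34.1 against 24.8 ± 9.83 CPM (SD, n = 3; log2 fold change 1.98, adjusted p = 0.0918).

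Of 11 genes that shed ligands or build the heparan sulfate on which chemokines are presented, 6 rose in FosGFP+ and none fell. The shares called over all genes were 10.3% higher and 1.85% lower. The 6 of this list were Adam17, Sdc1, Sdc4, Gpc1, Ext1 and Ndst1. The median of the 11 was 0.76, and 4 rose with total counts. TMM factors from genes of at least 50 CPM left 3 higher and 2, Adam10 and Sdc2, lower. Sdc4, a surface proteoglycan that also marks satellite cells, was at 5416 ± 1247 against 2069 ± 796 CPM (SD, n = 4; log2 fold change 1.39, adjusted p = 0.00141). Adam17, the protease that releases membrane-bound Cx3cl1 and Csf1, was at 137 ± 11.4 against 80.2 ± 8.33 CPM (log2 fold change 0.77, adjusted p = 0.00727). It lost its call with total counts (0.38, adjusted p = 0.0843) and with TMM factors from genes of at least 50 CPM (0.19, adjusted p = 0.306). Ndst1, which sulfates heparan chains, rose by 1.18 and the glypican gene Gpc1 by 1.21 (adjusted p = 0.00826 and 0.00661).

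Of 14 genes of NF-kB and its feedback, 8 rose in FosGFP+ and none fell, with a median of 0.72 and all 14 above 0. Over all genes, 10.3% were called higher and the median was -0.18, and this list was also chosen with earlier results known. Under total counts 6 of the 14 were called and 10 were above 0. The numbers were 5 and 10 under TMM factors from genes of at least 50 CPM, and 6 and 12 with the background removed. Nfkb2, which encodes the p52 precursor, was at 628 ± 83.0 against 207 ± 67.6 CPM (SD, n = 4; log2 fold change 1.60, adjusted p = 3.61e-04). Nfkb1, which encodes the p50 precursor, was at 350 ± 37.8 against 139 ± 22.5 CPM (log2 fold change 1.34, adjusted p = 2.55e-04). Rela rose by 1.25 and the inhibitor gene Nfkbib by 1.23, both at an adjusted p of 5.93e-04. In FoscKO all 14 were above 0, with a median of 0.42 against -0.04 over all genes. Of the 14, 12 were above 0 with total counts, 12 with TMM factors from genes of at least 50 CPM and 13 with the background removed. None of them was called by edgeR, DESeq2 or limma-voom and 2 had an unadjusted p under 0.05, with Nfkb1 at 0.52 and Nfkb2 at 0.63 (adjusted p = 0.914 and 0.911).

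Of 10 genes that set the stability of chemokine mRNA, 2 rose and 1 fell in FosGFP+, and 8 were above 0. Of all genes, 10.3% were called higher and 1.85% lower. Zfp36, whose protein destabilizes AU-rich cytokine mRNAs, was the gene of this list that fell. It was at 1495 ± 256 against 2698 ± 269 CPM (SD, n = 4, log2 fold change -0.85, adjusted p = 0.00381). Elavl1, which encodes the stabilizing protein HuR, rose by 0.83 (adjusted p = 0.00293) and Hnrnpd by 0.93 (adjusted p = 0.00202). Under TMM factors from genes of at least 50 CPM both of these lost their calls, and Elavl1 also with total counts (adjusted p = 0.0561). Khsrp, at 66.4 against 34.4 CPM, and Zc3h12a, at 78.3 against 41.0 CPM, lay wholly higher without passing (adjusted p = 0.0667 and 0.131). The list holds decay and stabilizing factors alike, and a net effect on mRNA stability was not tested. In FoscKO, Zfp36 was at 3838 ± 2341 against 2131 ± 48.3 CPM (SD, n = 3; adjusted p = 0.890).

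Marker lists of the sorted cells and of other cell types did not move as 1 block. Satellite cell markers summed to 10552 to 14002 CPM in FosGFP+ and 6097 to 8882 in FosGFP-. Sdc4, Vcam1 and Des carried that sum, and with Itgb1 were the 4 of 12 called higher, against 10.3% of all genes. Pax7 was at a mean of 52.9 CPM against 71.9, Calcr lay wholly lower at 144 against 205, and 2 of the 12 (Calcr and Chodl) were lower at an unadjusted p under 0.05. With total counts 3 were called higher and 5 lower, and with TMM factors from genes of at least 50 CPM 3 and 6. Over all genes too, both scalings called far more genes lower than the main fit, as given above. In the second dataset the sum was 8375 to 15044 CPM in FoscKO and 7621 to 10669.8 in Control. Of 14 leukocyte markers, 8 were tested and 0 called by edgeR in either comparison (1 and 0 at an unadjusted p under 0.05, 1 and 0 by DESeq2, and 0 by limma-voom). They summed to 67.5 to 109.6 CPM in FosGFP+, 89.4 to 158 in FosGFP-, 51.2 to 97.3 in FoscKO and 67.8 to 84.4 in Control. S100a8 was at 0 in every FoscKO library, and also in FosGFP+ replicate 2, FosGFP- replicates 1 and 3 and Control replicate 1. With total counts 1 leukocyte marker was called lower in FosGFP+, and with TMM factors from genes of at least 50 CPM 3.

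Endothelial markers summed to 194 to 229 CPM in FosGFP+ and 219 to 330.1 in FosGFP-. Of 9 tested, 1, Ramp2, was called lower, against 1.85% of all genes. With total counts 3 of the 9 were called lower, and 7 with TMM factors from genes of at least 50 CPM. Both scalings also called far more of all genes lower than the main fit, as given above, so 1.85% is not the background of these counts. Fibro-adipogenic markers summed to 580.4 to 1055 CPM in FosGFP+ and 815 to 1329 in FosGFP-, with 1 of 10, Smoc2, called lower, and 3 and 5 under those scalings. Pericyte and smooth muscle markers were at 815 to 1080.3 CPM in FosGFP+ and 352 to 908 in FosGFP-, with Steap4 called higher and Cspg4 lower, and 2 and 3 called lower under those scalings. In FoscKO, where Ccl2, Ccl7 and Cxcl10 lay above Control, the fibro-adipogenic sums were 576.6 to 751 CPM against 413 to 575.8 in Control, separate by a very small margin, and the pericyte and smooth muscle sums 1143 to 1754 against 713 to 1023. The second sum rested on Acta2, at a mean of 723 CPM against 291, and Steap4, at 329 against 77.5 (log2 fold change 2.09, adjusted p = 0.0801), while Rgs5 was at 10.9 against 27.6. No marker of this list was called by edgeR here, and DESeq2, limma-voom and both of those scalings each called 1 higher. Of the fibro-adipogenic list, Dcn was at 103 CPM against 51.7, Dpt at 157 against 106 and Cd34 at 304 against 242, while Pdgfra lay wholly lower at 8.28 against 17.1. The part of other cells in the results was not tested.

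The genes whose levels ran most like those of each member were found over the 14 libraries among 13698 genes with at least 5 CPM in both datasets, as the Pearson correlation of log2(CPM + 1) centred on each dataset. The libraries of a group share the group difference, so r describes these libraries and carries no p. Csf1 ran most like Osmr (r = 0.97), Ppp1r15b (0.96) and Stard13 (0.96), and Cxcl5 most like Relt (0.96), Riox1 (0.96) and Pop7 (0.91). Cxcl1 ran most like Tmem87b (0.95), Nme1 (0.94) and Nfkb1 (0.94), and Cx3cl1 most like Rhbdf2 (0.93), Arhgef2 (0.90) and Tmem255a (0.90). Closest to Ccl2 was Nab2 (0.90), to Ccl7 Ccdc124 (0.92), to Cxcl2 Armc5 (0.86), to Cxcl3 Nipal1 (0.91) and to Cxcl10 9330159F19Rik (0.86).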

How the data were processed

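RNA of 14 libraries was sequenced after Smart-Seq v4 and Nextera XT preparation, per the labels' protocols. The submitters' processing notes name GRCm38 and, without roles, HTSeq 0.6.1, STAR 2.5.0c, limma and DESeq2 1.20.0. The authors deposited a table of raw counts per gene for each dataset, and lists of genes with log2 fold changes and p-values and adjusted p-values, which are selected by an adjusted p under 0.05. Their 14 per-library columns were not used. The 5 lines naming no gene (69.8 to 89.7% of reads) were left out. Symbols came from GENCODE M21.

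Each dataset was fitted apart with edgeR 4.0.16 (filterByExpr, TMM, robust quasi-likelihood test, two-sided). CPM used the TMM library size. SEs are the absolute log2 fold change over the root of F. The test recovered known changes in counts simulated from its own fitted levels and spread. Those counts carried no uneven background or shift of all genes, so they do not check the test against these. Alternatives were DESeq2 1.42.0, limma-voom 3.58.1, other scalings and filters, a replicate block, background removal and each library left out. All 9 members are named, with up to 4 genes of each list by smallest p in the FosGFP comparison. Members and lists were chosen with earlier results of these data known. The calls among the receptor genes under other scalings are not reported here.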

Additional observations from a re-analysis of the deposited data

Results flagged for a closer look

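Dixon's test at the 95% level was applied to the levels of the 9 genes in the groups of 4 libraries, 18 tests in all, of which chance flags about 1 in 20. Ccl2 in FosGFP+ replicate 3, at 568 CPM, stood above the other 3 FosGFP+ libraries (364 to 392 CPM). Ccl7 in FosGFP- replicate 3, at 196 CPM, stood above the other 3 FosGFP- libraries (111 to 118 CPM).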

How the results depend on the processing

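For FosGFP+ minus FosGFP-, the 9 genes held 6 calls higher in the main fit and 4 to 7 under other settings, 5 to 7 with 1 library left out. The count called lower, 0 in the main fit, was 1 (Cxcl10) with total counts, with TMM factors from genes of at least 50 CPM, with a filter at a mean of 5 CPM, with the background removed and without FosGFP- replicate 1, a range of 0 to 1 with 1 library left out. Calls over all genes numbered 2508 in the main fit, 5974 with TMM factors from genes of at least 50 CPM, 1546 with the background removed and 1893 to 2566 with 1 library left out. Ccl7 turned to -0.078 with TMM factors from genes of at least 50 CPM. The cause of these changes was not tested.

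For FoscKO minus Control, the count of the 9 called higher, 0 in the main fit, was 3 with no filter, 2 with a filter at a mean of 5 CPM and with DESeq2, and 1 with total counts, with TMM factors from genes of at least 50 CPM and with limma-voom; with 1 library left out it was 0 to 2, the 2 without FoscKO replicate 1 being Ccl2 and Cxcl10. One of the 9, Cxcl3, was called lower with no filter and with DESeq2. Calls over all genes, 0 in the main fit, were 131 with no filter, 69 with DESeq2, 45 with total counts, 43 with TMM factors from genes of at least 50 CPM, 32 with a filter at a mean of 5 CPM, 17 with the background removed, 6 with limma-voom and 0 to 43 with 1 library left out. Cxcl5 turned to 0.023 without FoscKO replicate 1 and 0.082 without FoscKO replicate 3 (lowest -0.28 with 1 library left out). The Fos difference was -0.28 with total counts, -0.27 with TMM factors from genes of at least 50 CPM, -0.091 with the filter at 5 CPM, -0.13 with limma-voom, -0.17 with the background removed and -0.56 to 0.33 with 1 library left out. The cause was not tested. Depth limits Cxcl3 and Cxcl5 most, at 16 to 134 counts per FosGFP- library.

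With the replicate number as a block, 7 of the 9 were called higher in FosGFP+ (Cx3cl1 in addition, adjusted p = 0.0452) of 2280 genes called. In FoscKO the replicate block gave 2 higher, Ccl2 and Cxcl10 (adjusted p = 0.00182 and 0.0236), of 43 genes called, and Fos at -0.13. Deviations of same-numbered libraries correlated at -0.01 to 0.03 in the first dataset and -0.05 to 0.22 in the second, and not every library correlated best with its own number, so the numbers were not taken to pair the libraries.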
